A study of Mus musculus with 8 samples.

Results

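Glycolysis and hypoxia response genes were followed in immortalized mouse pancreatic stellate cells (PSCs), fibroblast-like cells that reside in the pancreas, after exposure to medium conditioned by pancreatic cancer organoids. The set is a fixed list of 34 gene symbols, chosen with earlier results of these data known. Of these, 32 were found among the 12160 genes of the deposited count table. The expression of Pfkp and Aldoc was not analysed here. PSCs were embedded in Matrigel, kept for 4 days in growth medium, and then held for a further 4 days in 1 of 3 media. Conditioned medium (CM) came from KPC organoids, 3D cultures of mouse pancreatic cancer cells, carrying either a lentiviral short hairpin RNA against Brca2 (shBrca2-CM, n = 3) or a control hairpin (shControl-CM, n = 3). The control group (n = 2) is titled DMEM in the labels, while the recorded treatment names the PSCs' own conditioned medium, and it is called control medium here. All 3 groups are the same immortalized PSC line, and the hairpins act in the organoids, not in the PSCs. The domes are stated to be biologically independent cultures of that line, so that the spread between libraries is a spread between cultures.

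Glycolysis is the chain of cytosolic enzymes that splits glucose into pyruvate, which lactate dehydrogenase turns into lactate or which mitochondria burn with oxygen. When oxygen is scarce, prolyl hydroxylases (Egln genes) no longer mark the HIF-1α protein for removal by the VHL ligase, and HIF-1α with its partner ARNT switches on glycolytic enzymes and many further targets through a short DNA motif. HIF-1α is controlled mostly through the stability of its protein, so that the Hif1a transcript is a poor measure of its activity. Fibroblasts of pancreatic tumors are known to live in poorly perfused tissue and can release lactate.

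HIF binds a core of 5 bases, ACGTG or GCGTG. RefSeq promoters (GRCm38.p6), read as the 250 bases upstream of each annotated start, were given for 31 of the 34 listed genes. Either motif, on either strand, was present for 27 of these 31 (87.1%), against 62.0% of the 9638 genes of the count table with a promoter and 41.5% of all 27025 genes. A gene with several starts has more windows, and counted by promoter the shares were 36 of 48 (75.0%), against 55.8% of 12339 and 38.6% of 32851. ACGTG alone was present for 15 of the 31 (48.4%), against 25.3% and 18.5%, and it overlaps the E-box CACGTG, which other factors bind. All 5 members that differed between the conditioned media had at least 1 match. A stretch with a match is printed for each, because these members carry the main comparison. Adm had a further match 90 bases upstream, and Ldha had an E-box 145 bases upstream and, at its other annotated start, a match 59 bases upstream. Another annotated start of Pkm and another of Aldoa had no match. Each run gives 45 bases on the strand of the gene, with the motif, read on either strand, in capitals.
Adm, chr7:110627583-110627627, + strand, match beginning 54 bases upstream of the start: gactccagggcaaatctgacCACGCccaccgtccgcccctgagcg
Ldha, chr7:46845736-46845780, + strand, 48 bases upstream: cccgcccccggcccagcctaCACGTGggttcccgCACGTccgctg
Aldoa, chr7:126799356-126799400, - strand, 126 bases upstream: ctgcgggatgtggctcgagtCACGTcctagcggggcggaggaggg
Pkm, chr9:59657132-59657176, + strand, 75 bases upstream: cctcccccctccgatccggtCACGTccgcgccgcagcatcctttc
Pfkl, chr10:78009882-78009926, - strand, 99 bases upstream: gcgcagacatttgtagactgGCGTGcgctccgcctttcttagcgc
The Ldha window holds an E-box and a further CACGT. A match describes these letters only, and no binding was measured.

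Libraries were read from the 3′ ends of transcripts. The shBrca2-CM libraries held 655996 to 1095534 counts on genes, the shControl-CM libraries 1093609 to 1624392, and the deeper control medium libraries 5476988 and 4623846. Levels are given as CPM, which are counts scaled to library size by TMM over all 8 libraries. A count of 3, taken as the floor for counting error, corresponds to 0.521 CPM in the deepest library and 4.34 CPM in the shallowest. Stellate cell and fibroblast markers were all in the table (12 of 12), and their summed level was 6846 and 7764 CPM with control medium, 5189 to 5761 CPM with shControl-CM and 4978 to 5223 CPM with shBrca2-CM. Single markers moved in opposite directions within that sum: with shControl-CM, Dcn was 22.7-fold higher and Vim 10.4-fold lower than with control medium, and between the conditioned media 5 of 12 were DE, Pdgfra and S100a4 higher and Dcn, Lum and Pdpn lower with shBrca2-CM. Epithelial markers, which would mark organoid cells, summed over 4 of 12 genes to 51.2 and 56.1 CPM with control medium, 72.5 to 82.9 CPM with shControl-CM and 76.7 to 125 CPM with shBrca2-CM. The other 8 epithelial markers, Epcam, Cdh1 and Krt8 among them, were not analysed here. Krt19 was DE 4.33-fold higher with shBrca2-CM than with shControl-CM (edgeR adjusted p = 0.0632), and highest with control medium (24.3 and 25.4 CPM). Leukocyte markers (3 of 8 genes) summed to 9.46 and 11.5, 23.7 to 36.0 and 13.0 to 26.6 CPM in the same order, and endothelial markers to at most 3.48 CPM over 2 of 5, with Kdr at 0 in every shBrca2-CM library and Tek at 0 in every shControl-CM library. The part of these levels in the results below was not tested. Among the conditioned medium libraries, shControl-CM replicate 1 stood apart: of 7352 genes with at least 20 counts there, 38 were at 5 or more times both other shControl-CM libraries, while each other library had 0 or 1 such gene. The counts of DE members are also given without it.

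The first question was whether PSCs express glycolysis and hypoxia genes differently when the organoids that conditioned the medium carried the hairpin against Brca2. With shBrca2-CM, 3 steps of glycolysis (Aldoa, Pfkl and Pkm) and lactate dehydrogenase A (Ldha) fell to between 0.618 and 0.688 of their level with shControl-CM, while the vasodilator peptide gene Adm rose 5.73-fold. The 32 members summed to 7056 to 7462 CPM with shBrca2-CM and to 9004 to 11580 CPM with shControl-CM, and the ranges did not overlap. The 13 genes of the core pathway summed to 5733 to 6245 against 7394 to 9811 CPM, and without Pkm to 2355 to 2600 against 2955 to 3640 CPM. Such sums rest mostly on the most abundant members. The median log2 CPM of the members in each library overlapped, at 5.32, 5.77 and 5.35 with shBrca2-CM and 5.50, 5.58 and 5.62 with shControl-CM. Over the core genes this median was 7.24 to 7.33 against 7.35 to 7.59, without overlap. In these bulk samples, fewer cells of a type and less RNA per cell cannot be told apart.

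A gene was called differentially expressed (DE) where edgeR's adjusted p was under 0.1, its log2 fold change exceeded 0.5 in either direction, and its normalized counts averaged over 5. Among the 32 members tested, 5 (15.6%) were DE between the conditioned media, against 3.13% of the 11035 genes tested. Of these, 4 were lower and 1 higher with shBrca2-CM, where 1.55% and 1.58% of all genes were DE in each direction. The log2 fold change was below 0 for 25 of the 32, with a median of -0.29, beside 0.029 over all genes. At an unadjusted p under 0.05 there were 12 members, beside 13.4% of all genes. The CPM values of the groups did not overlap for 12 members, beside 19.8% of all genes. Of these members 10 were lower and 2 higher (Adm and Eno2), beside 10.6% and 9.14% of all genes. The number of DE members depended on single libraries: it was 2, 1 and 1 without shBrca2-CM replicates 1, 2 and 3, and 8, 3 and 4 without shControl-CM replicates 1, 2 and 3.

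**Figure D1:**
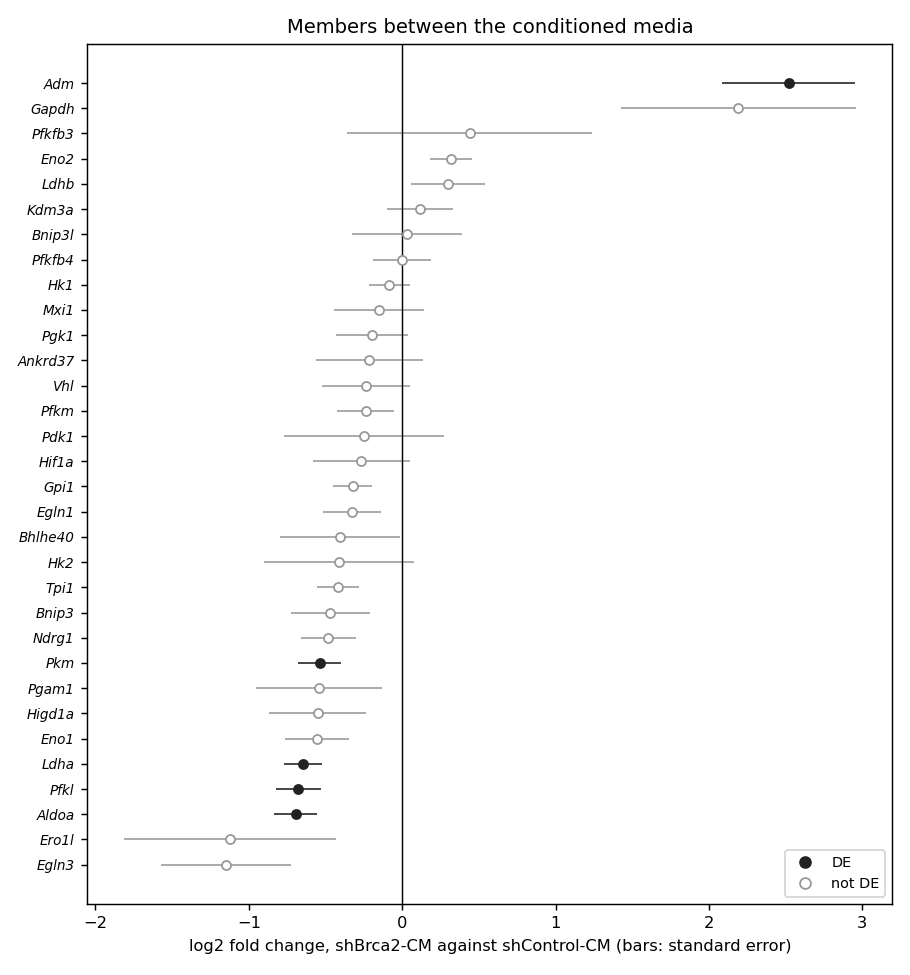
Log2 fold change (x axis) of each of the 32 members (y axis), shBrca2-CM against shControl-CM, with standard errors as bars and DE members as filled points. Most points lie below 0, and Adm, at 2.52, stands on the opposite side from Aldoa, Pfkl, Ldha and Pkm, at -0.69 to -0.54.

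Glucose is first phosphorylated by hexokinase and isomerized by Gpi1 before phosphofructokinase commits it to glycolysis. Pfkl, the liver-type phosphofructokinase subunit, measured 130, 146 and 160 CPM in the shBrca2-CM libraries, 203, 241 and 269 CPM with shControl-CM, and 47.3 and 87.5 CPM with control medium. The 3 media formed 3 separate ranges, lowest with control medium and highest with shControl-CM. Between the conditioned media Pfkl fell by 0.68 on the log2 scale (SE 0.15, edgeR adjusted p = 0.0367). The muscle-type subunit Pfkm was not DE between them, with a log2 fold change of -0.24 and 67.2 to 73.8 against 74.4 to 108 CPM.

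Aldolase A (Aldoa), which splits the 6-carbon sugar, measured 689, 670 and 678 CPM with shBrca2-CM and 975, 1018 and 1363 CPM with shControl-CM, beside 665 and 1077 CPM with control medium. The shBrca2-CM libraries lay close together and below all shControl-CM libraries. The lower control medium library lay just below the shBrca2-CM range, and the higher lay within the shControl-CM range. Aldoa fell by 0.69 on the log2 scale (SE 0.14, edgeR adjusted p = 0.0213). Triose phosphate isomerase (Tpi1), the next enzyme, had 585 to 625 against 718 to 980 CPM, without overlap, but was not DE (log2 fold change -0.42, edgeR adjusted p = 0.18). The core members Hk1, Hk2, Gpi1, Pgk1, Pgam1, Eno1 and Eno2 were not DE between the conditioned media either, at -0.56 (Eno1) to 0.32 (Eno2).

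Pkm, the pyruvate kinase that makes pyruvate and ATP in the last step, measured 3890, 3133 and 3596 CPM with shBrca2-CM, 4439, 5115 and 6171 CPM with shControl-CM, and 1839 and 2491 CPM with control medium. Here too the 3 media gave separate ranges in the same order as for Pfkl. Pkm fell by 0.54 on the log2 scale between the conditioned media (SE 0.14, edgeR adjusted p = 0.0836), close to both thresholds. Scaling by total counts in place of TMM took its adjusted p to 0.141, and its call was kept in 1 of the 6 fits that left out a library, the one without shControl-CM replicate 1 (log2 fold change -0.67 to -0.42 over the 6).

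Ldha, the lactate dehydrogenase subunit that favors lactate formation, measured 707, 706 and 589 CPM with shBrca2-CM, 1012, 1016 and 1161 CPM with shControl-CM, and 860 and 1235 CPM with control medium. Each shBrca2-CM library was below each of the others, and the shControl-CM libraries lay within the range of control medium. Ldha fell by 0.65 against shControl-CM (log2, SE 0.13, edgeR adjusted p = 0.0181). Its sister subunit Ldhb, which favors the reverse reaction, was not DE, with 33.3 to 53.5 against 31.4 to 46.9 CPM and a log2 fold change of 0.30. Pdk1, which restrains pyruvate oxidation, was at -0.25 and not DE.

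Leaving out libraries also touched the other lower members. Ldha lost its call without shBrca2-CM replicate 2 or 3 (log2 fold change -0.69 and -0.55). Aldoa lost it without any 1 of the shBrca2-CM libraries (-0.71, -0.68 and -0.68). Pfkl lost it in those same 3 fits and without shControl-CM replicate 2 (-0.61, -0.67, -0.75 and -0.69). The direction held in each of these fits.

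Adm encodes adrenomedullin, a secreted vasodilator peptide and a well known hypoxia target. It measured 17.4, 22.4 and 12.4 CPM with shBrca2-CM, 2.56, 2.90 and 3.40 CPM with shControl-CM, and 17.7 and 20.6 CPM with control medium. The shControl-CM libraries stood alone at a low level, and the shBrca2-CM and control medium ranges overlapped. The level with shControl-CM rests on 4, 3 and 5 counts, against 12, 18 and 14 with shBrca2-CM and 102 and 96 with control medium. Adm rose by 2.52 (log2, SE 0.43, edgeR adjusted p = 0.00867) between shControl-CM and shBrca2-CM, and the call was kept without any 1 library (2.30 to 2.75). When all libraries were thinned to the smallest total, the log2 fold change was 1.89 with an adjusted p of 0.15, and the call was lost.

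**Figure D2:**
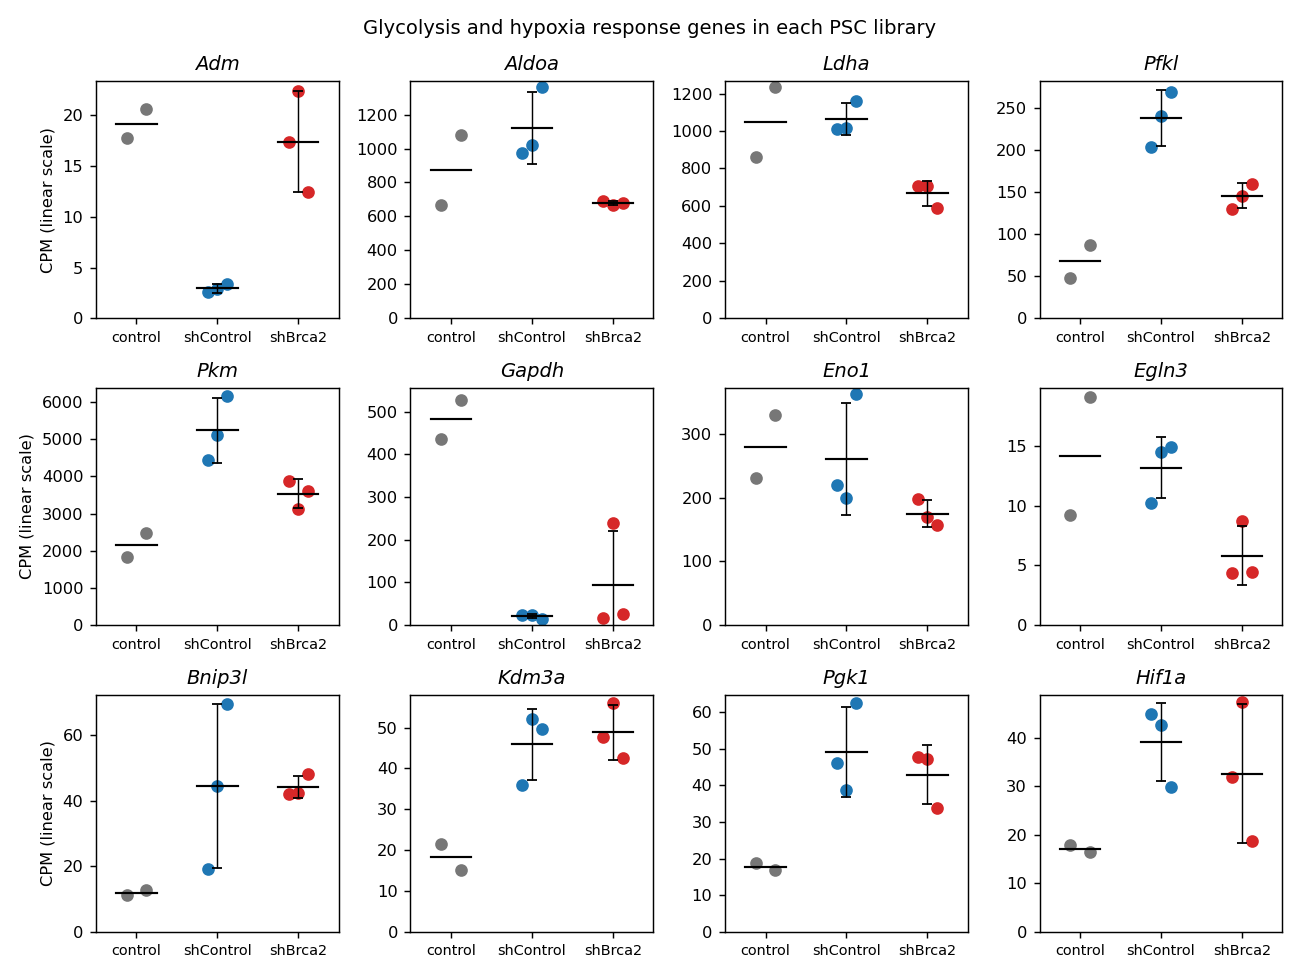
CPM on linear axes from 0 for 12 members in each library (points), by medium, with the group mean as a bar and the SD as whiskers where n = 3. Pfkl and Pkm show 3 separate ranges, Adm is low with shControl-CM alone, and Gapdh is high with control medium and in 1 shBrca2-CM library.

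Gapdh, the glyceraldehyde-3-phosphate dehydrogenase often used as a reference gene, was far from constant. It measured 436 and 528 CPM with control medium, 23.1, 24.2 and 14.9 CPM with shControl-CM, and 15.9, 240 and 24.9 CPM with shBrca2-CM. With either conditioned medium Gapdh was at low levels, except in shBrca2-CM replicate 2. That library held 193 Gapdh counts against 11 and 28 in the other shBrca2-CM libraries, and its level was 9.66 times the higher of the other levels. Of 5710 genes with at least 20 counts in that library, Gapdh was the only one at 5 or more times both other libraries. The difference between the conditioned media was not significant (log2 fold change 2.19, SE 0.77, edgeR adjusted p = 0.213). The last 300 bases of the annotated Gapdh transcript match other places in the mouse genome (GRCm39) in every 48-base window, at 158 places. Counting could have split its reads among copies, and the part of this in the differences between libraries was not tested.

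Other members also share their 3′ end with copies. In Pgk1 100% of 48-base windows were found elsewhere, in Pgam1 99.2% and in Eno1 90.1%, and their values are uncertain to that degree. The share was 54.9% in Ero1l, 46.2% in Bnip3 and 32.8% in Ldhb. For Aldoa it was 12.3%, for Pkm 24.1%, for Ldha 28.1%, for Adm 0.791% and for Pfkl 0%. Only exact matches were counted, and how the authors treated reads with several matches is not given in the sources used here.

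Hif1a measured 31.8, 47.3 and 18.6 CPM with shBrca2-CM, 44.9, 42.5 and 29.9 CPM with shControl-CM, and 17.9 and 16.3 CPM with control medium. The conditioned media overlapped, and all of their libraries lay above control medium. Between them the log2 fold change was -0.27 (SE 0.32, edgeR adjusted p = 0.786), and it turned to 0.063 without shBrca2-CM replicate 3. The hydroxylase Egln3, itself a hypoxia target, had 4.34, 8.71 and 4.44 CPM with shBrca2-CM and 10.2, 14.5 and 14.9 CPM with shControl-CM, without overlap, but was not DE (log2 fold change -1.15, SE 0.42, edgeR adjusted p = 0.233). Egln1 (57.2 to 60.8 against 60.4 to 83.9 CPM) and Vhl (16.9 to 31.8 against 24.2 to 30.6 CPM) were not DE either.

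The other hypoxia targets among the members were not DE between the conditioned media. Their log2 fold changes ran from -0.55 for Higd1a, a mitochondrial inner membrane protein, to 0.12 for Kdm3a, a histone demethylase, leaving out Ero1l. Ero1l, the oxidase that drives disulfide formation in the endoplasmic reticulum, had 2 counts in each shBrca2-CM library and 3, 7 and 11 counts with shControl-CM. The mitophagy receptors Bnip3 and Bnip3l stood at -0.47 and 0.033. Pfkfb3 and Pfkfb4, which make fructose-2,6-bisphosphate (F2,6BP), the activator of phosphofructokinase, stood at 0.44 and -0.0016, with Pfkfb3 at 0 counts in shControl-CM replicate 3 and 15 and 11 in the others.

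The second question was how these genes stood with each conditioned medium against control medium. With shControl-CM, 16 members were DE higher and 2 lower (56.2% of 32), in a background where 37.1% of 12086 tested genes were DE (18.2% higher, 18.9% lower). With shBrca2-CM, 12 were higher and 5 lower (53.1%), in a background of 37.8% of 12049 genes (18.6% higher, 19.2% lower). The median log2 fold change of the members was 0.53 with shControl-CM, beside -0.096 over all genes, and 0.24 with shBrca2-CM, beside -0.054. The values of the groups did not overlap for 62.5% and 65.6% of members, beside 59.9% and 57.4% of all genes. These were 18 higher and 2 lower with shControl-CM, beside 26.8% and 33.1% of all genes, and 16 higher and 5 lower with shBrca2-CM, beside 26.1% and 31.3%. At an unadjusted p under 0.05 there were 18 and 19 members, beside 44.0% and 46.9% of all genes. The 2 comparisons share the control medium libraries. Control medium had 2 libraries, and without its replicate 1 or 2 the shControl-CM count was 9 and 11, in fits that assume the remaining library to vary like the others. Without shControl-CM replicate 1 it was 17.

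**Figure D3:**
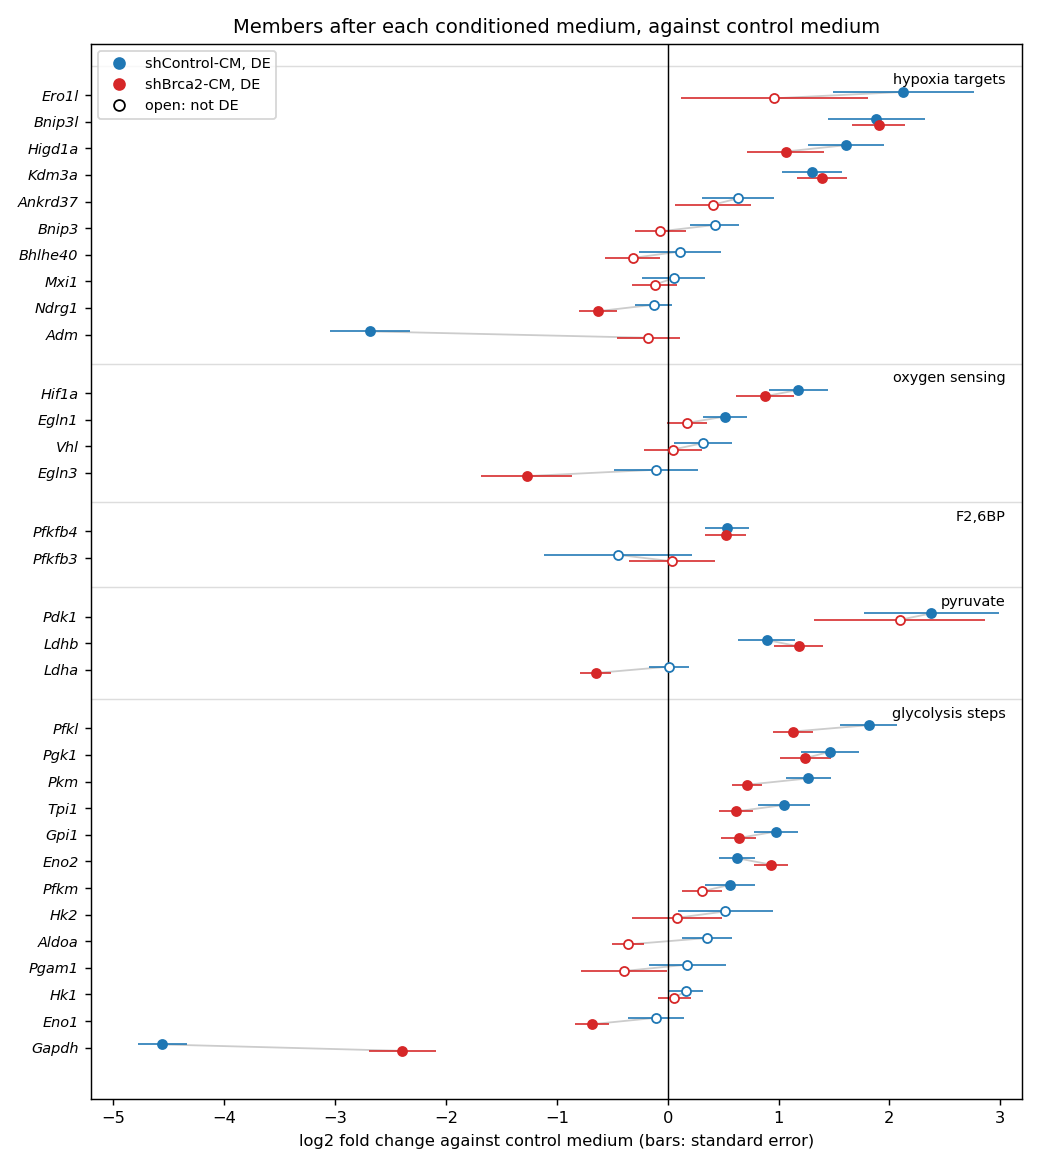
Log2 fold change (x axis) against control medium for each member (y axis), grouped by role, with shControl-CM in blue and shBrca2-CM in red, standard errors as bars and DE members filled. Gapdh is lowest with both media, Adm is at -2.69 with shControl-CM and -0.17 with shBrca2-CM, and Ldha is at 0.014 and -0.65, while the value of Ero1l with shBrca2-CM rests on 2 counts in each library.

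Within glycolysis, 7 of 13 core members were DE higher with shControl-CM (Eno2, Gpi1, Pfkl, Pfkm, Pgk1, Pkm and Tpi1) and 6 with shBrca2-CM (the same without Pfkm), beside 18.2% and 18.6% of all genes. Gapdh was DE lower with both and Eno1 with shBrca2-CM, beside 18.9% and 19.2% of all genes. Pfkl was 3.52-fold higher with shControl-CM (log2 1.81, SE 0.26, edgeR adjusted p = 7.25e-04) and 2.19-fold with shBrca2-CM (log2 1.13, SE 0.18, edgeR adjusted p = 4.45e-07). Phosphoglycerate kinase 1 (Pgk1), the first ATP-making step, measured 47.7, 47.3 and 33.7 CPM with shBrca2-CM, 46.1, 38.6 and 62.5 CPM with shControl-CM, and 18.8 and 16.8 CPM with control medium. Every conditioned medium library exceeded both controls, with log2 fold changes of 1.24 (SE 0.23, edgeR adjusted p = 1.22e-05) and 1.46 (SE 0.26, edgeR adjusted p = 0.0025). Pkm was at 1.27 with shControl-CM and 0.71 with shBrca2-CM, DE in both. Without 1 library, Pfkm kept its call in 1 of 5 fits (0.36 to 0.81), while Tpi1, with either conditioned medium, and Gpi1, with shBrca2-CM, lost theirs without control medium replicate 1.

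Enolase is encoded by 2 members with different values. Eno2 measured 150, 159 and 180 CPM with shBrca2-CM, 142, 124 and 135 CPM with shControl-CM, and 85.0 and 87.5 CPM with control medium, and was DE higher with both conditioned media (log2 0.93 and 0.63), the latter lost without control medium replicate 1. Eno1 measured 198, 169 and 157 CPM with shBrca2-CM, 220, 199 and 362 CPM with shControl-CM, and 231 and 329 CPM with control medium. Each shBrca2-CM library had less Eno1 than either control. Eno1 was DE lower with shBrca2-CM (log2 -0.68, SE 0.15, edgeR adjusted p = 2.36e-04), a call that was lost without control medium replicate 2 (-0.40), and at -0.11 with shControl-CM.

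Lactate dehydrogenase subunits also parted. Ldha was DE lower with shBrca2-CM than with control medium (log2 -0.65, SE 0.14, edgeR adjusted p = 1.32e-04), but this call was lost without control medium replicate 2 (-0.36). With shControl-CM Ldha was at 0.014 (SE 0.18, edgeR adjusted p = 0.96). Ldhb measured 33.3, 53.5 and 48.8 CPM with shBrca2-CM and 31.4, 34.8 and 46.9 CPM with shControl-CM, above the 21.4 and 18.9 CPM of control medium, and was DE higher with both (log2 1.18, SE 0.22, edgeR adjusted p = 1.52e-05, and 0.89, SE 0.26, edgeR adjusted p = 0.024), the latter lost without either control medium library. Pfkfb4, which makes the activator of phosphofructokinase, was also DE higher with both, at 0.52 and 0.53. These values lie next to the threshold, and the call was kept in 4 and 1 of 5 fits without 1 library.

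Pdk1, the kinase that holds pyruvate out of the mitochondrial dehydrogenase, was seen in few reads. It had 3, 3 and 4 counts with shBrca2-CM, 7, 4 and 8 with shControl-CM, and 7 and 2 in the deeper control medium libraries. These correspond to 3.55 to 4.34, 3.87 to 5.43 and 0.430 to 1.22 CPM, with both conditioned media above control medium. Pdk1 was DE higher with shControl-CM (log2 2.38, SE 0.61, edgeR adjusted p = 0.0149). The call was lost without control medium replicate 2 (1.88) and in thinned libraries (1.86). Over the 5 fits without 1 library the log2 fold change ran from 1.88 to 3.28. With shBrca2-CM Pdk1 was at 2.09 (edgeR adjusted p = 0.0253) with a mean count too low for the call.

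Gapdh was the most reduced member with each conditioned medium. It was 23.6-fold lower with shControl-CM (log2 -4.56, SE 0.22, edgeR adjusted p = 8.72e-07) and 5.26-fold lower with shBrca2-CM (log2 -2.39, SE 0.30, edgeR adjusted p = 1.88e-09). Without shBrca2-CM replicate 2 the latter was -4.49, and DESeq2's likelihood ratio test on all libraries did not call it (adjusted p = 0.202). Adm was 6.45-fold lower with shControl-CM than with control medium (log2 -2.69, SE 0.36, edgeR adjusted p = 5.01e-04), and at -0.17 with shBrca2-CM (SE 0.28, edgeR adjusted p = 0.661).

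Of the oxygen sensing genes, Hif1a was DE higher with shControl-CM (log2 1.18, SE 0.27, edgeR adjusted p = 0.00832) and with shBrca2-CM (log2 0.87, SE 0.26, edgeR adjusted p = 0.00546). The former call was lost without control medium replicate 2 (1.11) and the latter without shBrca2-CM replicate 2 (0.49). Egln3, at 9.21 and 19.1 CPM with control medium, was DE lower with shBrca2-CM (log2 -1.27, SE 0.41, edgeR adjusted p = 0.0106) but not without control medium replicate 2 (-0.67), nor in thinned libraries (-0.66). With shControl-CM Egln3 was at -0.11. Egln1 was DE higher with shControl-CM (0.52, edgeR adjusted p = 0.0719), a call kept in 1 of 5 fits without 1 library, and Vhl with neither.

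Bnip3l, a mitophagy receptor, measured 42.0, 42.3 and 47.9 CPM with shBrca2-CM, 19.2, 44.5 and 69.3 CPM with shControl-CM, and 11.1 and 12.7 CPM with control medium. Conditioned medium libraries were all higher than the controls, tightly with shBrca2-CM and over a wide range with shControl-CM. Bnip3l was DE higher by 1.90 (log2, SE 0.24, edgeR adjusted p = 1.37e-09) and 1.88 (SE 0.44, edgeR adjusted p = 0.00968), the latter lost without either control medium library (1.81 and 1.97). Kdm3a measured 47.7, 56.0 and 42.6 CPM with shBrca2-CM, 35.9, 52.2 and 49.6 CPM with shControl-CM, and 21.6 and 15.1 CPM with control medium. All conditioned medium libraries lay above the controls, and Kdm3a was DE higher by 1.39 (log2, SE 0.22, edgeR adjusted p = 8.31e-07) and 1.30 (SE 0.27, edgeR adjusted p = 0.00558).

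Higd1a, which helps cells to survive low oxygen, measured 10.1, 16.2 and 18.6 CPM with shBrca2-CM, 18.6, 23.2 and 27.2 CPM with shControl-CM, and 5.39 and 9.67 CPM with control medium. It was DE higher with shControl-CM (log2 1.61, SE 0.34, edgeR adjusted p = 0.00641), a call lost without control medium replicate 1 (1.25). With shBrca2-CM it was also DE (log2 1.06, edgeR adjusted p = 0.0106), which was lost without shBrca2-CM replicate 3 or control medium replicate 1 (0.68 to 1.52 over the 5 fits without 1 library). Ero1l was DE higher with shControl-CM (log2 2.13, SE 0.64, edgeR adjusted p = 0.0286) on 3, 7 and 11 counts against 6 and 6 in control medium, and the call was lost in thinned libraries (1.99) and without shControl-CM replicate 2 or either control medium library (1.96, 1.99 and 2.27).

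Ndrg1, a stress-responsive hypoxia target, measured 65.1, 90.8 and 63.0 CPM with shBrca2-CM, 104, 113 and 93.7 CPM with shControl-CM, and 106 and 119 CPM with control medium. All shBrca2-CM libraries lay below the control medium range, and Ndrg1 was DE lower there (log2 -0.63, SE 0.17, edgeR adjusted p = 0.00219) and at -0.13 with shControl-CM. It was not DE between the conditioned media (-0.48, edgeR adjusted p = 0.257). Hk1, Hk2, Ankrd37, Bnip3, Mxi1, Bhlhe40, Pfkfb3, Pgam1, Aldoa and Vhl were DE in neither comparison with control medium, with log2 fold changes between -0.45 and 0.63.

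The rest of the pathway was read through lists of other genes, chosen with earlier results of these data known. Of 8 further carriers of glucose and lactate tested between the conditioned media, 2 were DE (25%, beside 3.13% of all genes), both lower with shBrca2-CM. The glucose transporter Slc2a1 (GLUT1) measured 260, 239 and 287 CPM with shBrca2-CM, 411, 453 and 482 CPM with shControl-CM, and 142 and 181 CPM with control medium. The 3 media were separate, in the order also seen for Pfkl and Pkm, and Slc2a1 fell by 0.75 between the conditioned media (log2, SE 0.13, edgeR adjusted p = 0.00867). Slc16a3 (MCT4), the carrier that exports lactate, measured 98.4, 126 and 114 CPM, 275, 358 and 372 CPM, and 11.3 and 36.8 CPM. It fell by 1.54 (log2, SE 0.16, edgeR adjusted p = 3.01e-04), and was 14.0-fold higher with shControl-CM (log2 3.81) and 4.82-fold higher with shBrca2-CM (log2 2.27) than with control medium. Without 1 library these values ran from 3.19 to 4.87 and from 1.62 to 3.32 on the log2 scale. Both calls between the conditioned media were kept without any 1 library. Bsg, the chaperone of lactate carriers, and Slc2a8, an intracellular glucose transporter, were DE higher with both conditioned media than with control medium (log2 0.83 and 0.69 with shControl-CM, 0.73 and 0.97 with shBrca2-CM) and not DE between them. With shControl-CM, Bsg lost its call without control medium replicate 1, and Slc2a8 kept its call in 2 of 5 fits without 1 library.

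Of 36 further known hypoxia targets tested between the conditioned media, 11 were DE (30.6%), all of them lower with shBrca2-CM, beside 3.13% of all genes DE and 1.55% lower. The list's median log2 fold change was -0.32, beside 0.029 over all genes. The list was chosen with earlier results of these data known, so that its share is a description and not an independent check. It shares Slc2a1 with the carriers. Without shBrca2-CM replicate 1 or 2 the count was 7, and without shControl-CM replicate 1 it was 16, of which 3 were higher. Ddit4, an inhibitor of mTORC1, had 107 to 138 CPM with shBrca2-CM and 236 to 259 CPM with shControl-CM (log2 -0.98, SE 0.14, edgeR adjusted p = 0.00279). Stanniocalcin 2 (Stc2), a secreted glycoprotein, had 17.4 to 23.1 against 67.3 to 82.1 CPM (-1.85, SE 0.21, edgeR adjusted p = 5.13e-04). Its relative Stc1 had 0, 2 and 2 counts with shBrca2-CM and 19, 20 and 12 with shControl-CM (edgeR adjusted p = 0.0378). The ranges of these genes did not overlap.

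Fam162a, a mitochondrial protein, had 204 to 280 against 512 to 577 CPM (log2 -1.15, SE 0.14, edgeR adjusted p = 8.04e-04). Angptl4, a secreted inhibitor of lipoprotein lipase, had 139 to 173 against 279 to 329 CPM (-0.94, SE 0.14, edgeR adjusted p = 0.0031), far above the 22.2 and 23.2 CPM of control medium. P4ha2, a collagen prolyl hydroxylase, had 37.3 to 47.3 against 64.1 to 84.2 CPM (-0.79, edgeR adjusted p = 0.0688). The remaining genes answer other signals as well as hypoxia: the metallothioneins Mt1 (-0.91) and Mt2 (-1.15), which bind zinc, the heme oxygenase Hmox1 (-0.91) and the cytokine Mif (-0.85). Without 1 library at a time, 7 of the 11 kept their call in all 6 fits, Hmox1 in 4, Stc1 and Mif in 2, and P4ha2 in 1.

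**Figure D4:**
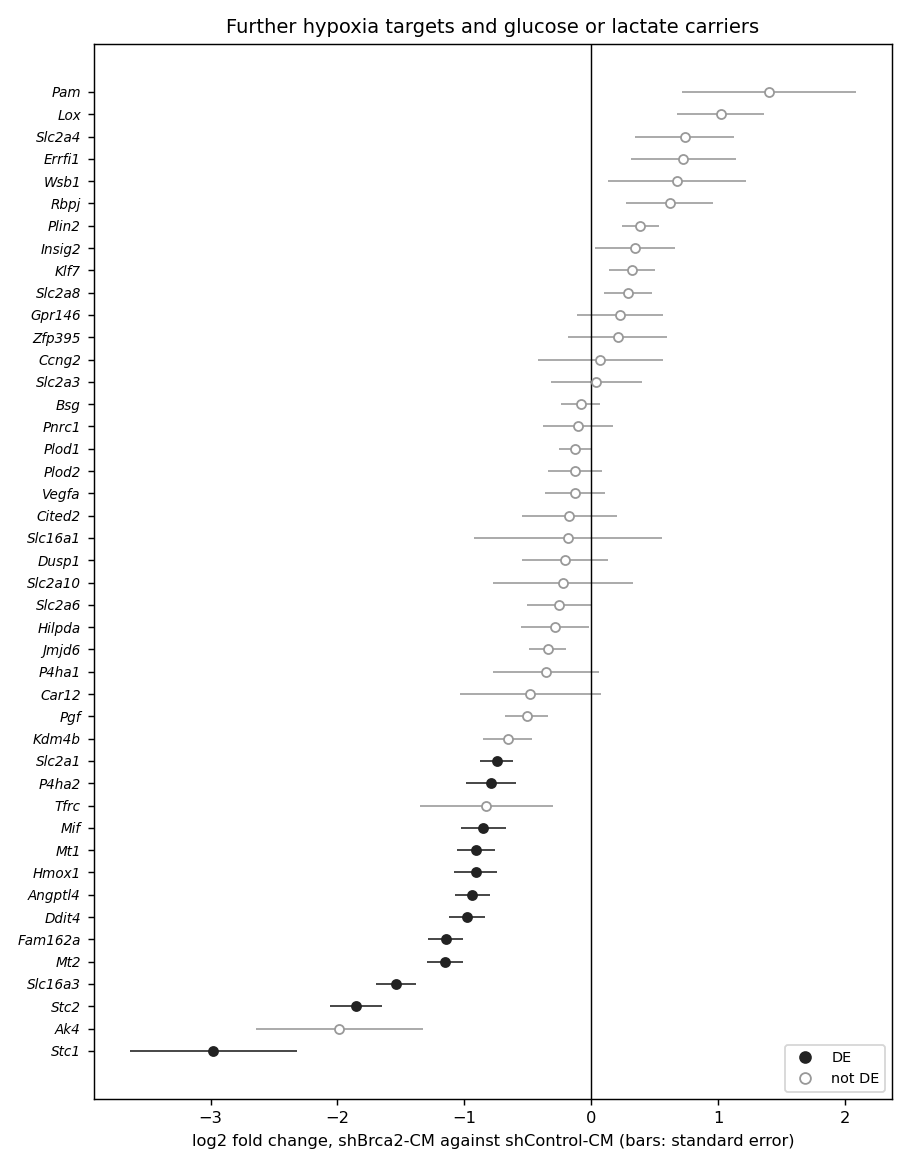
Log2 fold change (x axis), shBrca2-CM against shControl-CM, of further hypoxia targets and of carriers of glucose and lactate (y axis), with standard errors as bars and DE genes filled. All filled points lie below 0, and the value of Stc1 rests on 0, 2 and 2 counts with shBrca2-CM.

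Against control medium, 17 of 41 of these targets were DE higher and 3 lower with shControl-CM (48.8%, beside 37.1% of all genes, median 0.46), and 11 higher and 7 lower with shBrca2-CM (43.9%, beside 37.8% of all genes, median 0.11). The latter share is close to that over all genes. Angptl4 and Mt2 were the most increased with both, at log2 3.72 and 3.41 with shControl-CM and 2.76 and 2.24 with shBrca2-CM. Insig2, which restrains sterol synthesis, followed with shBrca2-CM (1.02, edgeR adjusted p = 5.46e-04), and its shControl-CM call was kept in 1 of 5 fits without 1 library. Stc2 was at 2.30 with shControl-CM and, not DE, at 0.44 with shBrca2-CM. Lysyl oxidase (Lox), a collagen crosslinker and hypoxia target, was lower with both, at 304 and 359 CPM with control medium, 18.3 to 51.9 CPM with shControl-CM and 49.2 to 84.6 CPM with shBrca2-CM (log2 -3.37 and -2.37). Cited2, which restrains HIF-1α activity, was also lower with both (-1.38 and -1.57), Stc1 with shBrca2-CM (edgeR adjusted p = 0.00482) and the Notch effector Rbpj with shControl-CM (-0.84). Without 1 library, Cited2 and Rbpj with shControl-CM kept their calls in 3 and 1 of 5 fits, and Stc1 with shBrca2-CM in 3. With shControl-CM, the log2 fold changes over such fits ran from -3.99 to -3.06 for Lox and from -2.01 to -0.995 for Cited2. Vegfa, the angiogenic factor, was DE higher with both (0.97 and 0.83) and not DE between them (-0.13). Its shControl-CM call was lost without either control medium library.

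Of 10 further oxygen sensing genes and HIF subunits, none was DE between the conditioned media by edgeR, and 1, Arnt, the HIF partner, had an unadjusted p under 0.05 (log2 -0.60, edgeR adjusted p = 0.175). Against control medium, 3 of the 10 were DE with shControl-CM (30%) and 4 with shBrca2-CM (40%), beside 37.1% and 37.8% of all genes. Arnt (0.66), the hydroxylase Egln2 (0.69) and the asparagine hydroxylase Hif1an (0.79), which blocks HIF activity, were DE higher with shControl-CM. Egln2 (0.52), Hif1an (0.89) and the scaffold Limd1 (0.55) were DE higher and the ubiquitin ligase Siah1a (-0.88) lower with shBrca2-CM. Without 1 library, these calls were kept in 2 or 3 of 5 fits with shControl-CM, and with shBrca2-CM in 5 for Hif1an, 4 for Egln2 and Siah1a and 3 for Limd1.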

How the data were processed

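RNA of 8 PSC cultures was measured by a bulk variation of MARS-seq. The values deposited by the authors are counts of reads on each gene, not normalized, in 1 column per culture. The submitters' processing notes name bcl2fastq, cutadapt, STAR 2.4.2a, HTSeq, DESeq2 and the build mm10. The annotation, the rule by which genes entered the table and the use of molecular identifiers are not given in the sources used here, so that amplified copies of a molecule may be counted more than once. The table's columns included 1 that matched no sample, which was left out.

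Each pair of media was fitted alone in R 4.3.3 with edgeR 4.0.16 (TMM, a quasi-likelihood test of genes with 10 or more counts in that pair, Benjamini-Hochberg adjustment over all genes tested). The thresholds follow the study's methods. Standard errors were taken from the fold change and the F statistic. In simulated data, 200 genes carried a log2 change of 2. Between the conditioned media edgeR recovered 196 of 200 (11035 genes, 28 false calls). Against control medium it recovered 192 with shControl-CM (12086 genes, 33 false calls) and 199 with shBrca2-CM (12049 genes, 16 false calls). The planted change was larger than that of the members DE lower with shBrca2-CM than with shControl-CM, and was placed only in well counted genes. Recovery of smaller changes, or in genes with few counts, was not simulated. Alternatives were DESeq2 1.42.0, other scalings and filters, a replicate block, a joint fit of the 3 groups, stricter thresholds, thinning and leaving out each library. The members and lists were chosen with earlier results of these data known. Described in full were members DE between the conditioned media, the 5 most increased and 5 most decreased DE members against control medium, and Hif1a, Gapdh and Ldha; other members are given by range. Of other lists, genes DE between the conditioned media and the 3 most changed in each direction against control medium are named, and Egln3, Eno2, Vegfa and sister enzymes were named after their values were seen. Floors cover counting error only.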

Additional observations from a re-analysis of the deposited data

How the results depend on the processing

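The number of DE members kept within 1.5 times under DESeq2, other scalings and filters, all 3 groups in one fit and thinned libraries, in each of the 3 comparisons. Between the conditioned media it was 5, and 1 with an adjusted p under 0.05 and a log2 fold change over 1, and 1 to 8 without 1 library. It was 9 to 17 without 1 library for shControl-CM against control medium, and 8 at the stricter thresholds and 15 to 17 without 1 library for shBrca2-CM. Further hypoxia targets DE between the conditioned media, under alternatives chosen after seeing the data, numbered 4 at the stricter thresholds and 7 to 16 without 1 library. Hif1a between the conditioned media ranged from -0.64 to 0.063 without 1 library, above 0 without shBrca2-CM replicate 3. Ldha with shControl-CM against control medium, at 0.014, turned to -0.099 with total counts, -0.023 with the replicate block and, without 1 library, from -0.21 to 0.29, below 0 without shControl-CM replicate 3 or control medium replicate 1. The causes were not tested. The share of listed genes with a motif in a promoter was 48.4% with ACGTG alone.

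Same-numbered libraries deviated together only weakly (correlations of deviations -0.0476, 0.0254 and 0.139 between the conditioned media), so that the numbers were not taken to pair them. With the replicate block, 4, 17 and 15 members were DE, and Pkm lost its call between the conditioned media. Total counts in place of TMM moved the median of all genes to 0.14 between the conditioned media and to -0.21 with shControl-CM against control medium, with the members' medians at -0.18 and 0.41. Direction was counted for each member described in full under the alternative settings. It was kept in 111 of 112 such values between the conditioned media. Against control medium it was kept in 130 of 134 values with shControl-CM and 165 of 165 with shBrca2-CM. The stricter thresholds reuse the main fit, so that direction could not change there. Most of these members were picked as DE in the same libraries, so that these counts are no independent check of direction. Depth limits members under about 10 counts in a library most, such as Adm, Pdk1, Ero1l and Egln3.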

Other observations

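Glycogen and pyruvate genes outside the set are given here. Of 29 further enzymes of glycolysis, glycogen and pyruvate tested, none was DE between the conditioned media by edgeR, and 2 had an unadjusted p under 0.05. Against control medium, 5 of 31 were higher and 9 lower with shControl-CM (45.2% DE, beside 37.1% of all genes), and 3 higher and 9 lower with shBrca2-CM (38.7%, beside 37.8%), shares not far from those over all genes. Glycogen synthase 1 (Gys1) measured 134, 123 and 137 CPM with shBrca2-CM, 140, 156 and 146 CPM with shControl-CM, and 41.5 and 44.1 CPM with control medium. All conditioned medium libraries lay well above control medium, with log2 fold changes of 1.62 (SE 0.17, edgeR adjusted p = 3.24e-12) and 1.77 (SE 0.17, edgeR adjusted p = 7.44e-05). Brain-type glycogen phosphorylase (Pygb), which breaks glycogen down, was DE higher with both (0.66 and 0.82), as was pyruvate carboxylase (Pcx, 0.93 and 0.62). Pygl (1.41) and Pgm1 (1.05) were DE higher with shControl-CM.

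Among genes of pyruvate entry into mitochondria and its oxidation, some were lower with conditioned media, while Pdk2, Pdp1, Pdp2, Dlat, Dld and Pdhx were not DE in either comparison with control medium. Mpc2, a subunit of the mitochondrial pyruvate carrier, measured 59.3, 62.2 and 67.5 CPM with shBrca2-CM, 78.8, 78.3 and 51.6 CPM with shControl-CM, and 155 in each control medium library (log2 -1.29, edgeR adjusted p = 2.63e-09, and -1.17, edgeR adjusted p = 0.00221). Its partner Mpc1 was DE lower with both, on 2 counts in each shBrca2-CM library, 8, 3 and 2 with shControl-CM, and 45 and 43 with control medium. Pdk4, a pyruvate dehydrogenase kinase induced by fasting, had 0, 3 and 3 counts with shBrca2-CM, 5, 7 and 5 with shControl-CM, and 81 and 54 with control medium, and was DE lower with shControl-CM (-1.60, edgeR adjusted p = 0.0128) and with shBrca2-CM (edgeR adjusted p = 5.94e-05). Pdk1, of the same family, was higher with shControl-CM than with control medium. Ugp2, which makes the glucose donor of glycogen, was at -1.48 and -1.91, and Pgm2 at -1.50 and -1.19. With shControl-CM, Ugp2 lost its call without control medium replicate 1 and ranged from -2.91 to -1.46 without 1 library, and Pgm2 and Pgm1 kept their calls in 2 and 3 of 5 fits. Pdk4 with shControl-CM was also lost without control medium replicate 1.

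In the pentose phosphate pathway, none of 9 genes tested was DE between the conditioned media by edgeR, and 1 had an unadjusted p under 0.05. Against control medium 3 of 10 were higher and 2 lower with shControl-CM (50%, beside 37.1% of all genes), and 2 higher and 2 lower with shBrca2-CM (40%, beside 37.8%). H6pd, the dehydrogenase of the endoplasmic reticulum, measured 259, 282 and 289 CPM with shBrca2-CM, 245, 230 and 299.5 CPM with shControl-CM, and 68.3 and 71.6 CPM with control medium. The conditioned media overlapped, at 3.98-fold and 3.67-fold the control level (log2 1.99, edgeR adjusted p = 6.97e-17, and 1.88, edgeR adjusted p = 6.70e-05). Pgls was also DE higher with both (0.85 and 0.95) and Pgd with shControl-CM (0.87), while the epimerase Rpe was DE lower with both (-1.14 and -1.58), Prps2 with shControl-CM (-1.31) and Prps1 with shBrca2-CM (-0.58). Rpe rests on 7, 3 and 2 counts with shBrca2-CM, and its range there overlapped control medium. Without 1 library, Gys1, Pygb, Mpc2, H6pd and Pgls kept their calls with both conditioned media, while with shControl-CM Mpc1, Pcx, Pygl, Rpe and Prps2 kept theirs in 1 of 5 fits and Pgd lost its call without control medium replicate 1. The log2 fold change of Rpe with shControl-CM ran from -3.05 to -0.94 over these fits. With shBrca2-CM, Rpe kept its call in 2 of 5 fits (-1.97 to -0.61) and Prps1 in 3 (-0.80 to -0.34).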
